A study of Mus musculus and Homo sapiens
Mus musculus with 12 samples.

Results

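The 10 genes described here encode the neuropeptides and calcium-binding proteins by which inhibitory interneurons of the brain are commonly told apart. They comprise 8 peptide precursors (Sst, Vip, Npy, Cck, Pnoc, Crh, Cort and Tac2) and 2 calcium-binding proteins (Calb2 and Pvalb), and were taken by symbol from the 34496 genes counted in 7 mouse brain libraries. Their levels were described in nuclei with at least 1 unique fragment identifier (UFI) of Gad1 and Gad2 together per 10000 UFIs. Gad1 and Gad2 encode the enzymes that make the transmitter GABA, and a UFI counts a cDNA fragment once regardless of amplification. This rule gave 3821 GAD nuclei of 11198 nuclei, and the remaining 7377 are called other nuclei. The share of GAD nuclei was 32.3% to 39.25% per library.

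The libraries were made by snHH-seq, a droplet method for total RNA of single nuclei that primes reverse transcription with random primers, from brains of wild-type male C57BL/6J mice. Nuclei came from frozen tissue in 4 libraries (2 without and 2 with a preindex, a well-specific barcode in the reverse transcription primer) and from fresh tissue in 3 libraries (2 without and 1 with preindex). Groups were taken from the sample titles, since in 4 of the 7 libraries a further field of the record names the opposite primer, and in that field the primer coincides with storage. No label states that the libraries came from separate animals, so that p-values measure only the spread between these libraries, which may be technical.

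Libraries held 8605214 to 42439731 UFIs, with 9011.5 to 27543 UFIs in the median nucleus. Between libraries, 32 barcodes were shared by 64 nuclei. Kidney genes marked 472 nuclei, all in the 2 frozen libraries with preindex. No doublet caller was run. Of the GAD nuclei, 434 also held Slc17a7 or Slc17a6, the vesicular glutamate transporters of excitatory neurons, at 1 UFI per 10000 or more. Not all GAD nuclei were interneurons by their markers. Rgs9, a gene of striatal projection neurons, reached 5 UFIs per 10000 in 1072 GAD nuclei outside the Purkinje, Lhx6 and Adarb2 classes described below. Pooled, these nuclei had Drd2 at 556 CPM (the UFIs of a gene scaled to the total of all UFIs). Purkinje genes marked 39 GAD nuclei, of which 13 and 14 came from the 2 frozen libraries without preindex.

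Interneurons of the cortex and striatum release GABA, and most also store a peptide that is cut from a precursor, packed into dense-core vesicles and released upon strong firing. Somatostatin cells and the fast-spiking parvalbumin cells arise largely from the medial ganglionic eminence and depend on the transcription factor Lhx6. Cells with vasoactive intestinal peptide arise largely from the caudal eminence and carry Adarb2 and Prox1. Calretinin (Calb2) and parvalbumin (Pvalb) are EF-hand proteins that bind calcium in the cytosol and shape its decay after a spike.

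Sst is a classical target of the cAMP response element (CRE), which CREB binds. Promoter sequence from RefSeq (GRCm38.p6) was matched for 7 of the 10 genes (all but Pnoc, Crh and Calb2), and the 250 bases before each start were searched on both strands. The windows below are shown because the CRE palindrome TGACGTCA was found in Sst alone of the 7, and the CRE core TGACG in Sst, Vip, Cck and Cort. Capitals mark the motif, all windows read 5′ to 3′ along the gene, and in Cort and Cck the core lies on the opposite strand and reads CGTCA.
Sst: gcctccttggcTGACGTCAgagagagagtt
Cort: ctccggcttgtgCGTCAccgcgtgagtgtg
Cck: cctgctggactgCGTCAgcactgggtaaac
Vip: ggatcactactgTGACGtctttcggggagc
Vip, TATA box: aagcacaagcccTATAAAatgagagacttt
The Sst window is chr16:23890874-23890903 on the minus strand, with the palindrome at -48 from the RefSeq start. It lies within the GENCODE span of Sst (23889573 to 23890958), whose start is upstream of the RefSeq start. The Cort window is chr4:149126764-149126793 (minus strand, core at -18) and the Cck window chr9:121495724-121495753 (minus strand, core at -47). Of the Vip windows, chr10:5639127-5639156 holds the core at -79 and chr10:5639176-5639205 holds TATAAA at -30, both on the plus strand. Among all 32851 promoters of the same length, 1.55% held the palindrome, 17.8% the core (which lies within every palindrome) and 12.4% TATAAA. A match is a description of these letters and not a bound site.

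Most of the peptides were higher in GAD nuclei, and Cck was lower. UFIs were summed per library and class, so that fewer cells of a type and less RNA per cell cannot be told apart, and classes were compared with edgeR's quasi-likelihood test with the library as a block and Benjamini-Hochberg adjustment. Of the 14203 genes tested, 36.8% passed an adjusted p of 0.05, 17.8% as higher in GAD nuclei and 19% as lower. Of the 10 genes, 5 passed as higher and 1 as lower. Crh, Cort and Tac2 did not pass the filter on low counts and were not tested, and Calb2 was tested and did not pass. Vip, Npy and Pnoc had at most 1.03, 1.11 and 0.930 CPM in other nuclei and met this filter through their GAD level. They could hardly fail to pass in this fit, so that their adjusted p-values, here and below, and their part in the count carry no weight. With no filter they also passed as higher (log2 fold changes 5.26, 4.23 and 4.06, largest adjusted p = 2.89e-12 in edgeR).

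Sst, the somatostatin precursor, is a gene of 1.386 kb on chromosome 16 (23889573 to 23890958, GRCm38). In GAD nuclei it had 24.0 CPM in the lowest library, 32.1 in the median library and 52.0 in the highest, against 0.956, 2.53 and 3.71 CPM in other nuclei. Every GAD value lay above every value of other nuclei, and the log2 fold change was 3.80 (SE 0.18, adjusted p = 3.27e-07 in edgeR). Of all 2448 Sst UFIs, 87.7% lay in GAD nuclei.

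Cort encodes cortistatin, which binds somatostatin receptors. It was the rarest of the 10, with 75 UFIs in all, 60 of them in GAD nuclei. Its GAD level was 0.664 CPM in the lowest library, 0.868 in the median and 1.32 in the highest, against 0, 0.0956 and 0.243 CPM in other nuclei. The classes did not overlap, although single libraries rest on 2 to 18 UFIs. When no filter on low counts was applied, the log2 fold change of Cort was 2.96 (SE 0.41, adjusted p = 1.59e-05 in edgeR).

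Npy, the neuropeptide Y precursor, is a gene of 6.798 kb on chromosome 6 (49822710 to 49829507). It stood at 9.98, 15.2 and 28.3 CPM (lowest, median and highest library) in GAD nuclei and at 0.690, 0.833 and 1.11 CPM in other nuclei. No value of the classes overlapped, and the log2 fold change was 4.26 (SE 0.16, adjusted p = 1.01e-07 in edgeR).

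Vip, the precursor of vasoactive intestinal peptide, lies on chromosome 10 (5639218 to 5647617) and showed the largest difference of the 7 genes tested. Its GAD level was 9.28 CPM in the lowest, 17.7 in the median and 30.2 in the highest library, and other nuclei had 0.0580, 0.555 and 1.03 CPM. GAD nuclei were higher in 7 of 7 libraries, with a log2 fold change of 5.29 (SE 0.25, adjusted p = 2.88e-07 in edgeR). GAD nuclei held 95.2% of the 1058 Vip UFIs, the highest share of the 10 genes.

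Pnoc encodes prepronociceptin, the source of the opioid-like peptide nociceptin, and is a gene of 24.8 kb on chromosome 14 (65400673 to 65425472). GAD nuclei had 3.92, 8.74 and 14.2 CPM (lowest, median, highest) and other nuclei 0.239, 0.517 and 0.930 CPM. The classes again did not overlap, and the log2 fold change was 4.09 (SE 0.18, adjusted p = 2.17e-07 in edgeR).

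Crh, which encodes corticotropin-releasing hormone, and Tac2, which encodes neurokinin B, were scarce. Crh had 0.357, 2.29 and 3.71 CPM (lowest, median, highest) in GAD nuclei and 0, 0.174 and 0.345 CPM in other nuclei. Tac2 had 0.357, 3.47 and 5.06 CPM in GAD nuclei and 0.111, 0.523 and 0.729 CPM in other nuclei. The lowest GAD value of each is 1 UFI in the first frozen library without preindex, which for Tac2 lies within the range of other nuclei. When no filter on low counts was applied, edgeR gave log2 fold changes of 3.73 for Crh (adjusted p = 3.06e-07) and 2.69 for Tac2 (adjusted p = 1.30e-07), and all 10 genes were tested, of which 8 passed as higher and 1 as lower.

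Cck, the cholecystokinin precursor, which excitatory cortical neurons also express, was the only one of the 10 that passed as lower in GAD nuclei. Its level was 3.86, 5.83 and 8.21 CPM (lowest, median, highest) in GAD nuclei and 12.7, 16.9 and 24.7 CPM in other nuclei. The classes did not overlap in this opposite direction, and the log2 fold change was -1.70 (SE 0.09, adjusted p = 7.90e-07 in edgeR). GAD nuclei held 12.7% of the 2718 Cck UFIs.

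Of the calcium-binding proteins, Pvalb is a gene of 15.287 kb on chromosome 15 (78191114 to 78206400). Its GAD level was 6.64, 9.80 and 31.4 CPM (lowest, median, highest) against 0.232, 1.70 and 4.01 CPM in other nuclei. The classes did not overlap, with a log2 fold change of 3.07 (SE 0.23, adjusted p = 5.24e-06 in edgeR), which was 2.74 (adjusted p = 4.02e-05 in edgeR) without the Purkinje-marker nuclei.

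Calb2, a gene of 30.709 kb on chromosome 8, did not separate the classes. It had 3.76, 5.16 and 8.66 CPM (lowest, median, highest) in GAD nuclei and 3.06, 7.07 and 10.5 CPM in other nuclei. The ranges overlapped, GAD nuclei were higher in 2 of 7 libraries, and the log2 fold change of -0.15 (SE 0.18, adjusted p = 0.562 in edgeR) was smaller than its error.

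**Figure D1:**
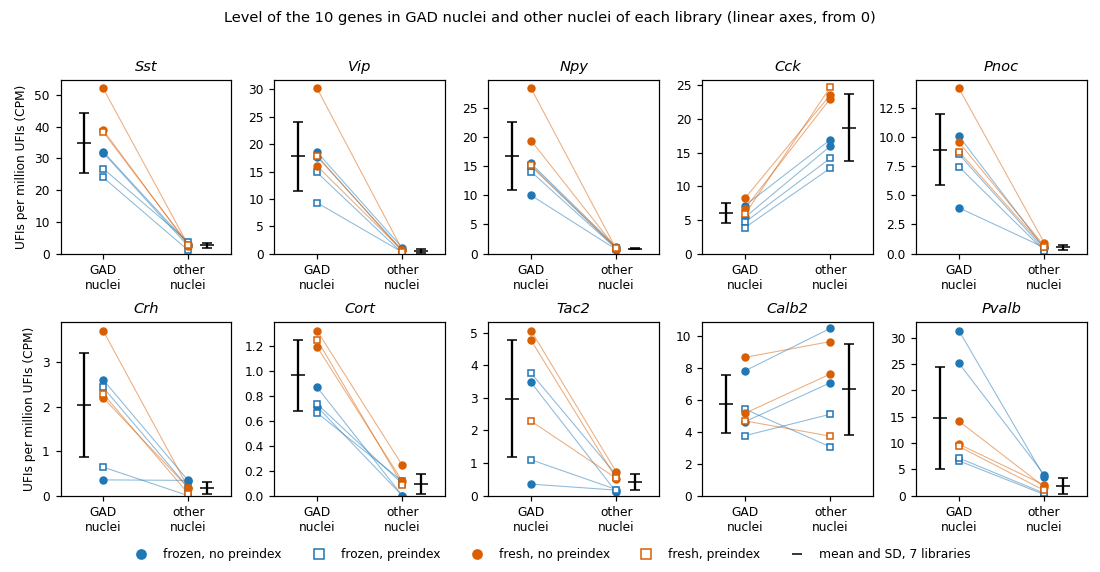
Level of each of the 10 genes in CPM (linear axes from 0) in GAD nuclei and other nuclei, with a line joining the 2 classes of each library and bars for the mean and SD over 7 libraries. All lines fall from GAD nuclei to other nuclei except those of Cck, which all rise (GAD 3.86 to 8.21 CPM, other 12.7 to 24.7 CPM), and those of Calb2, which go both ways.

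Levels of different genes were compared only per kilobase of gene span, since reads of introns were counted. None of the 10 genes overlapped another gene of the annotation. Exons made up 5.68% (Calb2) to 66.1% (Crh) of the span, with 52.0% for Sst and 8.33% for Npy. The order below was not corrected for this and is not one of expression alone. On this scale Sst led in GAD nuclei, at 25.1 ± 6.75 CPM per kb (SD, n = 7), far above Npy at 2.47 ± 0.852 and Vip at 2.12 ± 0.751, which did not differ beyond their spread. Crh at 1.02 ± 0.583, Cck at 1.02 ± 0.255 and Pvalb at 0.969 ± 0.633 CPM per kb formed a further level of neighbours closer than their SDs. Cort (0.557 ± 0.163), Tac2 (0.408 ± 0.246) and Pnoc (0.359 ± 0.124) lay below, each within an SD of the next, and Calb2 was lowest at 0.187 ± 0.0588. In other nuclei the order began with Cck, at 3.19 ± 0.840 CPM per kb, and Sst, at 1.82 ± 0.605.

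Few nuclei carried a UFI of any given member. For the share of nuclei with at least 1 UFI, each nucleus was thinned to 5000 UFIs, which left out 69 GAD and 103 other nuclei of lower depth. Sst was then seen in 7.09% ± 1.38 of GAD nuclei (SD, n = 7) and in 0.898% ± 0.395 of other nuclei, higher in 7 of 7 libraries (adjusted p = 0.0195, two-sided exact sign-flip permutation test, whose smallest raw p over 7 libraries is 0.0156). In the same exact test Vip (2.49% against 0.188%), Npy (4.25% against 0.334%), Pnoc (3.36% against 0.200%), Cort (0.490% against 0.0349%), Tac2 (0.971% against 0.190%) and Pvalb (4.49% against 1.02%) were higher in GAD nuclei of all 7 libraries, each at the same adjusted p, and Cck was lower in all 7 (2.48% against 8.13%). The Cort shares rest on few nuclei, at 0.144% against 0.0768% in the second frozen library with preindex. With at least 2 UFIs of Gad1 and Gad2 per 10000, Cort was higher in 6 of 7 libraries and did not pass (adjusted p = 0.0521, exact test). Crh was higher in 6 of 7 libraries (0.880% against 0.0957%, adjusted p = 0.0347, exact test), and Calb2 did not pass, with a difference of -0.396 ± 1.15 points (p = 0.453, exact test).

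Unthinned, shares were larger in both classes, which had median depths of 12390 UFIs (GAD) and 12763 UFIs (other). The unthinned shares were 10.3% against 2.63% for Sst, 7.87% against 1.05% for Npy, 9.18% against 0.856% for Pnoc and 9.75% against 2.45% for Pvalb. Shares in other kinds of nuclei, unthinned, are given for comparison, and free RNA, doublets and own expression were not told apart in them. Among 471 kidney-marker nuclei of the 2 frozen libraries with preindex (median 8765 UFIs), no nucleus held a UFI of Sst, Vip, Pnoc, Crh, Cort, Tac2 or Calb2, which allows a share of up to 0.637% for each. Npy and Cck were each seen in 0.425% of them (95% exact interval 0.0515% to 1.53%). Pvalb was seen in 1.06% of them (0.346% to 2.46%), but the kidney itself expresses parvalbumin, so that this share is no measure of free RNA. Among 170 oligodendrocyte-marker nuclei (median 10861 UFIs), Sst and Npy were each seen in 1.18% (0.143% to 4.19%), Pvalb and Calb2 in 1.76% (0.365% to 5.07%) and Cck in 7.65% (4.13% to 12.7%). The Cck share of GAD nuclei, 6.49% unthinned, was thus not above that of oligodendrocyte-marker nuclei, but it was above that of kidney-marker nuclei. Among the 1072 Rgs9 GAD nuclei (median 12079.5 UFIs), Sst and Npy were each seen in 0.933% (0.448% to 1.71%) and Cck in 1.49% (0.855% to 2.41%). These intervals cover counting error only. Cort, at 1.37% of all GAD nuclei unthinned, was seen in 0.0933% of the Rgs9 GAD nuclei (0.00236% to 0.519%).

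Within the nuclei that held them, the genes differed in how many UFIs a nucleus carried. A GAD nucleus with Vip had 6 Vip UFIs in the median and up to 48, and 14.5% of the 117 such nuclei had a single UFI. Sst reached 68 UFIs in a nucleus, with a median of 3 over 369 nuclei, and 119 of these had 5 or more. For Cck, Pnoc, Calb2, Crh, Cort and Tac2 the median was 1 UFI, so that most of their positive nuclei rest on a single fragment. Of the 3821 GAD nuclei, 2469 showed none of the 10 genes, 879 showed 1, 345 showed 2, 85 showed 3 and the rest up to 6.

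The classes of nuclei that carried each gene were described with cut-offs on marker genes chosen after the counts had been seen, so that they carry no test. Lhx6 GAD nuclei (294 nuclei with at least 1 Lhx6 UFI per 10000) held Sst at 170 ± 91.4 CPM (SD, n = 7 libraries), the highest level of Sst in any class, Npy at 34.4 ± 25.9, Pvalb at 17.1 ± 6.23 and Cort at 4.79 ± 3.39 CPM. Vip was not seen in any of the 294, which allows a share of up to 1.02%. Adarb2 GAD nuclei (449 nuclei with at least 40 UFIs per 10000) held Vip at 141 ± 33.3 CPM, against 1.88 ± 1.73 in the 1967 GAD nuclei that met no cut-off. The same class had the highest means of Npy (50.9 ± 28.2), Pnoc (24.5 ± 10.3), Tac2 (15.9 ± 8.43) and Crh (12.2 ± 7.45 CPM), and Sst at 3.99 ± 5.76 CPM. Rgs9 GAD nuclei had the lowest level of Sst among the GAD classes, at 1.39 ± 1.52 CPM. The classes depend on where the cut-offs were set, since 429 GAD nuclei lay near that for Lhx6 and 461 near that for Adarb2. At the median depth of 12390 UFIs a single Lhx6 UFI lies near its cut-off. These counts therefore cannot tell types from ranges, which was not tested.

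Pvalb and Calb2 were highest in cerebellar classes. In the 39 Purkinje-marker GAD nuclei Pvalb stood at 212 ± 104 CPM over the 3 libraries with 5 or more such nuclei, and 33 of the 39 held a UFI. Calb2 was not seen in any of them, which allows a share of up to 7.69%. Granule-marker nuclei, 173 nuclei outside the GAD class, held Calb2 at 37.4 ± 11.6 CPM (SD, n = 4 libraries). The Slc17a6 class (1128 nuclei), named for the transporter of mainly subcortical excitatory neurons, held it at 20.8 ± 7.04 CPM (n = 7). Cck was highest in the Slc17a7 class (3268 nuclei), at 23.0 ± 5.00 CPM, followed by the Slc17a6 class at 18.6 ± 4.37, a difference within the spread. Nuclei that met both of these cut-offs count in the Slc17a6 class.

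**Figure D2:**
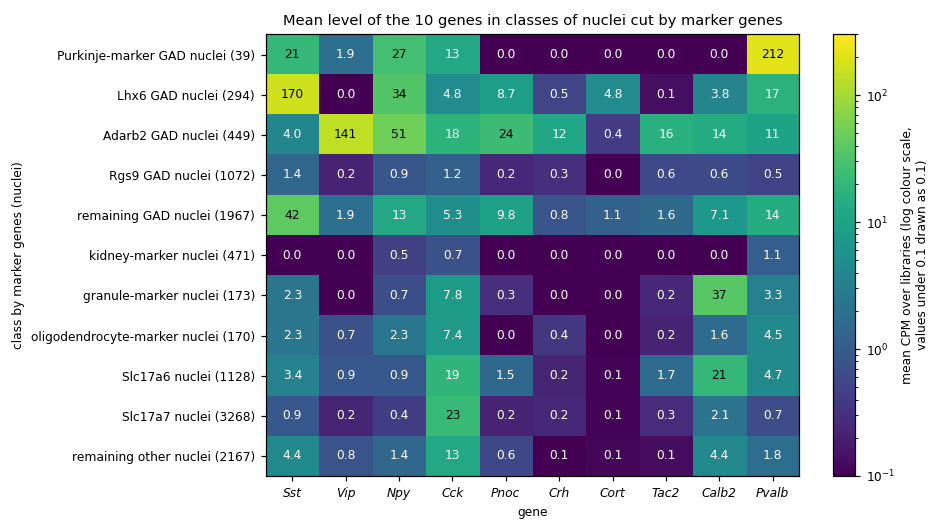
Mean level of the 10 genes (columns) in 11 classes of nuclei cut by marker genes (rows, with the number of nuclei), as CPM averaged over the libraries with at least 5 nuclei of the class, on a logarithmic colour scale. Sst peaks in Lhx6 GAD nuclei (170 CPM), Vip in Adarb2 GAD nuclei (141 CPM), Pvalb in Purkinje-marker GAD nuclei (212 CPM), Calb2 in granule-marker nuclei (37.4 CPM) and Cck in Slc17a7 nuclei (23.0 CPM).

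Seen from the members, a nucleus was counted as holding a gene at 1 UFI per 10000 or more. Of 100 Vip nuclei in the GAD class, 92 were Adarb2 GAD nuclei and none was an Lhx6 GAD nucleus. Crh (29 of 38) and Tac2 (29 of 42) nuclei also fell mainly into the Adarb2 class. Of 263 Sst nuclei, 81 were in the Lhx6 class, 2 in the Adarb2 class and 174 met no cut-off. The 168 Npy nuclei were divided, with 61 in the Adarb2 class, 33 in the Lhx6 class and 69 that met no cut-off. Of 147 Pvalb nuclei, 22 were Purkinje-marker nuclei, 16 Lhx6 nuclei and 97 met no cut-off. Outside the GAD class, 335 of 483 Cck nuclei held Slc17a7 (69.4%, against 50.1% of all other nuclei), and 89 of 157 Calb2 nuclei held Slc17a6 (56.7%, against 15.8%).

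Detection of the genes in the same GAD nucleus was examined for all 45 pairs, on nuclei thinned to 5000 UFIs. The share of the second gene in nuclei with the first was set against the share in nuclei without it, per library. This share and the product of shares used below cover all GAD nuclei. They include the Rgs9 GAD nuclei, where the most frequent of the 10 genes, Cck, was seen in 1.49%, unthinned. Genes confined to the same part of the GAD nuclei can exceed both measures, and detection together within a type was not tested. The planned test took the 9 pairs with at least 10 nuclei that held both, a limit that favours pairs seen together, so that the 6 of them that passed carry no weight as a count. The pairs were therefore also chosen by the product of the 2 shares (at least 5 nuclei), which does not use the overlap. This choice, made after seeing the data, gave 8 pairs, of which 4 passed in the two-sided exact sign-flip permutation test, Sst with Npy and Npy with Pnoc as higher and Sst with Vip and Sst with Cck as lower. A library with no shared nucleus gives a lower share by construction, and Sst and Vip shared none and Sst and Cck 1. A passed test thus carries no weight for the latter pairs. The adjusted p of the 2 higher pairs was computed with these lower pairs among those that passed, and depends on them. Over all 45 pairs none passed, with a smallest adjusted p of 0.0541 in the exact test.

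Sst and Npy were seen together most often, in 66 of 254 Sst nuclei, where the product of the 2 shares corresponds to 10.4 nuclei. Per library, Npy was seen in 15.8% and 35.0% of Sst nuclei (frozen, no preindex), 18.8% and 25.5% (frozen, preindex), 22.7% and 30.2% (fresh, no preindex) and 30.9% (fresh, preindex), against 1.36% to 4.98% of nuclei without Sst. The ranges did not overlap, with a mean difference of 22.9 ± 7.47 percentage points (SD, n = 7, higher in 7 of 7 libraries, adjusted p = 0.0313 over the 8 pairs, exact test). Npy and Pnoc shared 13 nuclei (7.39 ± 8.20 points, 7 of 7 libraries, adjusted p = 0.0313, exact test). In the 2 frozen libraries with preindex Pnoc was seen in 3.45% and 3.85% of Npy nuclei, against 3.08% and 3.58% of nuclei without Npy. Each of these 2 libraries had 1 shared nucleus, so that its direction rests on a single nucleus.

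Vip was seen together with several of the other members, given here as values because these pairs were chosen by their overlap. Of 92 Vip nuclei, 18 held Crh, 17 held Tac2, 12 held Cck, 12 held Pnoc and 14 held Calb2, where the products of shares correspond to 0.785, 0.834, 2.06, 3.11 and 2.23 nuclei. Tac2 (18.28 ± 11.95 points) and Cck (13.8 ± 10.6) were higher in Vip nuclei in 7 of 7 libraries, Pnoc (8.11 ± 7.59) and Calb2 (13.4 ± 9.65) in 6, and Crh (17.3 ± 13.6) in 5. Pairs with fewer shared nuclei also lay above the product of shares, among them Crh with Tac2 (7 nuclei against 0.290), Cck with Tac2 (7 against 0.761), Cck with Crh (5 against 0.716) and Sst with Cort (5 against 1.22).

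Some pairs were seen together less often than the product of shares. Sst and Vip shared none of 254 Sst nuclei, which allows a share of up to 1.18%, where the product corresponds to 6.23 nuclei. Sst and Cck shared 1 nucleus where it corresponds to 5.69. Unthinned, Sst and Vip shared 4 nuclei, against a product of 11.3, and Sst and Cck 16, against 20.4. Calb2 shared no thinned nucleus with Pvalb or Cck, but products of 3.25 and 2.04 nuclei leave little room for overlap, and unthinned it shared 12 with Pvalb (product 16.97) and 15 with Cck (product 11.8). Sst with Pvalb (10 nuclei, 0.194 ± 2.70 points, adjusted p = 0.906, exact test) and Npy with Pvalb (10 nuclei, 4.93 ± 7.33 points, adjusted p = 0.146, exact test) did not pass. Under the planned limit, no pair passed the exact test when nuclei were not thinned or when GAD nuclei with Slc17a7 or Slc17a6 were left out. The difference for Sst with Npy was then 28.8 points (adjusted p = 0.0538, exact test) and 23.1 points (adjusted p = 0.0547, exact test). Without single libraries it was 21.1 to 24.5 points, at adjusted p between 0.0313 and 0.0833 in the exact test, whose smallest raw p over 6 libraries is 0.0313.

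**Figure D3:**
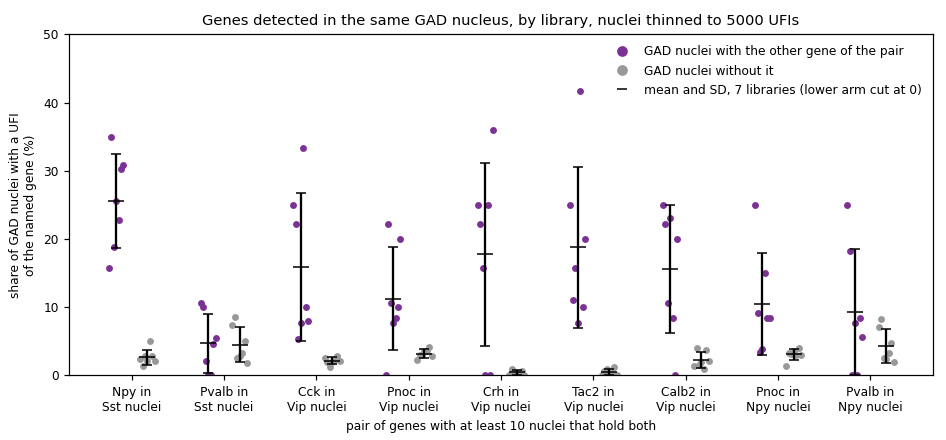
Share of GAD nuclei (%, thinned to 5000 UFIs) with a UFI of the named gene, among nuclei with the other gene of the pair (purple) and without it (grey), 1 point per library with mean and SD, for the 9 pairs with at least 10 nuclei that held both. Npy in Sst nuclei is the pair whose 7 purple points all lie at 15.8% or more, while Pvalb in Sst nuclei overlaps its grey points.

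The same relations appeared in levels. UFIs were summed over GAD nuclei with a gene at 1 UFI per 10000 or more and over all other GAD nuclei of the library, and all genes were tested with edgeR. A nucleus of fewer than 10000 UFIs meets this limit with a single UFI, so that the depth of positive nuclei differed from that of the rest (median 9903.5 against 12439 UFIs for Vip, 14323 against 12322 for Sst). Crh and Cort were in too few nuclei to divide the GAD class in this way. The fits of different genes share nuclei and are given side by side.

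In Sst nuclei, 10.7% of the 9625 genes tested passed as higher and 12.4% as lower. Npy had 111 ± 44.6 CPM in Sst nuclei (31.9 to 168 over 7 libraries) and 9.83 ± 5.95 in the rest, a log2 fold change of 3.62 (SE 0.24, adjusted p = 1.79e-08 in edgeR). Seen the other way, Npy nuclei had Sst at 289 ± 126 CPM and the rest at 21.3 ± 5.85 (3.88 in edgeR, adjusted p = 7.61e-10), and they had Pnoc at 31.2 ± 10.95 against 7.78 ± 2.46 CPM (1.95, adjusted p = 2.32e-06). In Npy nuclei 7.31% of genes passed as higher and 9.61% as lower. No Vip UFI was seen in the 263 Sst nuclei, so that Vip was at least 25.8-fold lower there, against a floor of 3 UFIs over the 7 libraries together.

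In Vip nuclei, 5.18% of the genes tested passed as higher and 7.64% as lower. Crh had 51.7 ± 29.6 CPM there against 0.842 ± 0.491 in the rest, Tac2 had 45.5 ± 24.7 against 2.20 ± 1.34 and Calb2 32.3 ± 18.4 against 5.28 ± 1.90 CPM, each higher in 6 of 6 libraries with enough nuclei. These 3 genes passed the filter on low counts in few of the fits, in each of which they were high, so that they had to differ there and are given as values. Cck, which also did not pass the filter in every fit, and Pnoc, which did, rose by 2.62 and 1.87 on the log2 scale (adjusted p 5.02e-06 and 0.000177 in edgeR). Npy (0.21, adjusted p = 0.900) and Pvalb (-0.63, adjusted p = 0.590) did not pass in edgeR. Sst was not seen in the 96 Vip nuclei of these libraries and was at least 18.3-fold lower.

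In Tac2 nuclei (4 libraries, 1.6% of genes higher and 3.76% lower), Vip stood at 417 ± 304 CPM against 13.7 ± 2.73 (log2 difference 4.66, adjusted p = 8.79e-26 in edgeR) and Cck at 61.9 ± 45.1 against 5.05 ± 0.947 (3.49, adjusted p = 5.89e-07), while Crh had 66.9 ± 29.9 against 1.62 ± 0.401 CPM. Vip was also higher in Cck nuclei (3.52, adjusted p = 9.29e-05, with 1.62% of genes higher and 3.32% lower), in Pnoc nuclei (2.63, adjusted p = 3.84e-06, with 2.43% higher and 5.02% lower) and in Calb2 nuclei (3.42, adjusted p = 0.000419, with 1.25% higher and 3.14% lower), and Npy was higher in Pnoc nuclei (2.01, adjusted p = 0.000112 in edgeR). Vip had 203 ± 223 CPM in Cck nuclei (higher in 6 of 7 libraries), 93.1 ± 78.9 in Pnoc nuclei (6 of 7) and 200 ± 206 in Calb2 nuclei (5 of 6). The lowest library of each had no Vip UFI. Calb2 nuclei had less Sst, at 10.1 ± 7.14 against 34.6 ± 10.2 CPM (-1.93, adjusted p = 0.00753 in edgeR), and Pvalb nuclei had less Vip (-3.92, adjusted p = 4.98e-05 in edgeR).

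**Figure D4:**
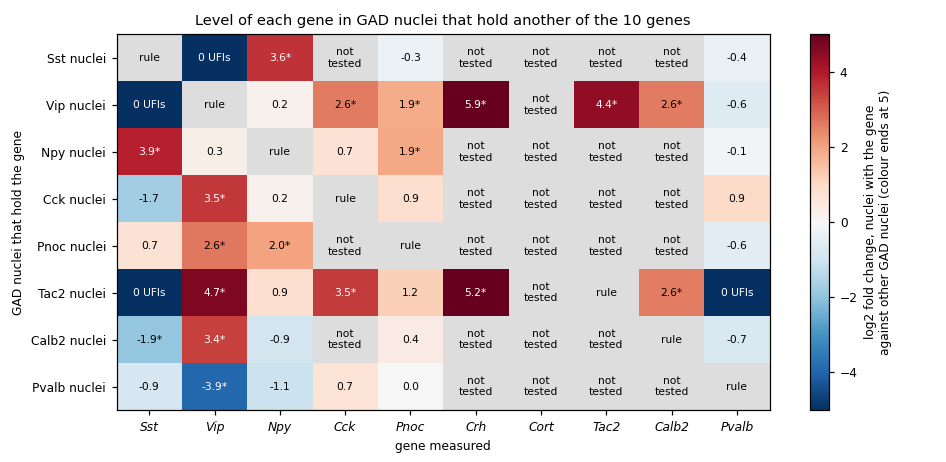
Log2 fold change of each gene (columns) between GAD nuclei that hold another of the genes (rows) and the remaining GAD nuclei, with an asterisk for an adjusted p under 0.05 in edgeR. Asterisks carry no weight for genes that met the filter only where they were high. These are Crh, Tac2 and Calb2 in Vip nuclei and Crh and Calb2 in Tac2 nuclei. The gene that chose the nuclei is marked as the rule, genes under the filter are marked as not tested, and "0 UFIs" (drawn in the darkest blue) marks genes with no UFI in the nuclei that hold the other gene, such as Vip in Sst nuclei.

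The genes that went with each member were named by a fixed rule, the 5 largest fold changes among genes that passed with at least 10 CPM. With Sst these were Crhbp, Lama4, Elfn1, Masp1 and Ror2. Crhbp, which encodes the protein that binds corticotropin-releasing hormone, had 64.4 ± 15.2 CPM in Sst nuclei and 4.84 ± 2.36 in the rest (log2 fold change 3.68 in edgeR). Its level in the rest was too low for the filter on low counts, which it met through the Sst nuclei. Crhbp therefore had to differ and is given as values. The same can hold for other named genes that were low in the rest. Elfn1, a synaptic protein that shapes excitatory input onto somatostatin cells, had 553 ± 147 against 65.7 ± 15.8 CPM (3.09, adjusted p = 1.47e-10). With Npy the genes were Nos1, Egfr, Crhbp, Pde11a and Kit. Nos1, the neuronal nitric oxide synthase, led them with 380 ± 238 against 41.0 ± 8.61 CPM (3.17, adjusted p = 4.86e-07 in edgeR, higher in 6 of 7 libraries).

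With Vip the leading genes were Wnt5b, Fbln2, Cxcl14, Cbln2 and Igf1. Igf1, the insulin-like growth factor, had 403 ± 183 CPM in Vip nuclei and 26.2 ± 4.41 in the rest (3.91 in edgeR, adjusted p = 4.43e-15), and Wnt5b 203 ± 82.6 against 9.12 ± 1.53 (4.48, adjusted p = 2.09e-14). Ndnf, a gene of neurogliaform cells, was not seen in Vip nuclei and was at least 11.3-fold lower. Of the 66 Cck nuclei, 20 (30.3%) also held Slc17a7 or Slc17a6, against 11.4% of all GAD nuclei. Their part in the Cck results was not tested, and no doublet caller was run. With Cck the genes were Htr3a, Frem1, Col14a1, Cxcl14 and Npas1, and with Tac2 they were Htr3a, Cxcl14, Cbln2, Npas1 and Adra1b. With Cck, Htr3a and Cxcl14 were higher in 7 of 7 libraries, Frem1 and Npas1 in 6 and Col14a1 (175 ± 333 CPM) in 5. Htr3a encodes a subunit of the ionotropic serotonin receptor that marks interneurons of the caudal eminence. It had 72.0 ± 82.7 CPM in Cck nuclei against 2.92 ± 1.12 in the rest, and 86.2 ± 60.3 CPM in Tac2 nuclei against 4.23 ± 3.22. Htr3a was low in the rest of both fits, as Crhbp was with Sst, and is given as values. With Pnoc the genes were Ndnf, Egfr, Hapln1, Itgbl1 and Pde11a, and Ndnf had 125 ± 85.1 against 18.6 ± 3.15 CPM (2.77, adjusted p = 1.44e-06 in edgeR).

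Several of the genes that were lower with a member are known from striatal projection neurons. The rest of each fit included the Rgs9 GAD nuclei. To this class belonged 4 of 263 Sst, 3 of 168 Npy, 0 of 100 Vip and 1 of 147 Pvalb nuclei. Lower levels of such genes were thus largely fixed by the make-up of the rest, and their p-values carry no weight. Adora2a, the adenosine receptor of indirect-pathway neurons, fell by 5.53 on the log2 scale in Sst nuclei (adjusted p = 2.44e-08 in edgeR) and by 5.49 in Npy nuclei (adjusted p = 6.84e-08). It was not seen in Pvalb nuclei and was at least 29.5-fold lower there. Drd2, the dopamine receptor of the same neurons, fell by 5.58 in Vip nuclei (adjusted p = 2.74e-12 in edgeR) and had a log2 change of -5.14 in Pvalb nuclei (adjusted p = 1.01e-06).

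For Pvalb and Calb2 some of the leading genes changed when nuclei with cerebellar markers were left out. With Pvalb they were Car8, Grid2ip, Cep76, Plekhd1 and Fam107b, in a fit with 10.7% of genes higher and 12.5% lower. Car8 is also on the list of Purkinje markers, so that its loss without nuclei chosen by that list was fixed in advance. It had 799 ± 884 CPM in Pvalb nuclei and 50.9 ± 77.02 in the rest (log2 fold change 3.84, adjusted p = 0.00283 in edgeR, higher in 4 of 7 libraries). Grid2ip and Fam107b were also higher in 4 of 7 libraries, Cep76 in 5 and Plekhd1 in 7. Without the Purkinje-marker nuclei, Car8, Grid2ip and Cep76 no longer passed the filter, the edgeR estimate for Fam107b was 0.13 on the log2 scale (adjusted p = 0.885) and that for Plekhd1 1.82 (adjusted p = 4.21e-05). The leading genes were then Mypn (2.91), Adamts15 (2.85), Nefh (2.64), Gm26633 (2.56) and Cemip (2.504), with a largest adjusted p of 5.44e-06. Nefh, the heavy neurofilament chain, had 83.8 ± 71.5 against 12.1 ± 3.84 CPM. Of the 79 Calb2 nuclei, 15 (19.0%) held Slc17a7 or Slc17a6. With Calb2 the leading genes were Wnt5b, Fat2, Vwa5b1, Cbln3 and Gabrq. Vwa5b1 and Gabrq were higher in 6 of 6 libraries, Wnt5b in 5, Fat2 in 4 and Cbln3 in only 2. Fat2 and Cbln3 did not pass the filter without granule-marker nuclei, which was fixed in advance because both are on the list of granule markers that chose these nuclei. Wnt5b, Vwa5b1 and Gabrq stayed in the lead without granule-marker nuclei, now with Prox1os and Prox1, and Wnt5b had an estimate of 2.56 in edgeR (adjusted p = 0.00183).

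Storage was compared in sums over GAD nuclei, with storage and primer as terms of an edgeR fit over the 7 libraries, which share an estimate of the spread because fresh brain with preindex has 1 library. Of the 15369 genes tested, 0.325% passed for storage (0.117% as lower and 0.208% as higher in frozen libraries), and none of the 10 members did. In edgeR 1407 genes had an unadjusted p under 0.05, among them Sst, Npy and Pvalb, and DESeq2 called no member either. The log2 fold changes of frozen against fresh ran from -0.70 (Cort) to 0.64 (Pvalb) among the 10, and the median of all genes tested was 0.00200.

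Sst had 32.1 and 31.8 CPM in frozen libraries without preindex, 26.8 and 24.0 with it, 38.9 and 52.0 in fresh libraries without preindex and 38.3 with it. All frozen values lay below all fresh values, with a mean of 28.7 ± 3.96 CPM (SD, n = 4) against 43.1 ± 7.76 (SD, n = 3) and a log2 fold change of -0.53 (SE 0.11, adjusted p = 0.0917 in edgeR), which did not pass. It passed with no filter on low counts (adjusted p = 3.13e-05 in edgeR) and without the first fresh library without preindex (-0.62, adjusted p = 0.0331). Cort, at 0.664 to 0.868 CPM in frozen and 1.19 to 1.32 in fresh libraries, also did not overlap, but its change of -0.70 (SE 0.39, adjusted p = 0.649 in edgeR) rests on few UFIs. How many of all genes separated in this way by storage was not counted. The lack of overlap of Sst and Cort thus carries no weight as a storage effect. Npy had 9.98 to 15.5 CPM in frozen and 15.2 to 28.3 in fresh libraries (-0.45, SE 0.19, adjusted p = 0.504 in edgeR), which overlapped. Pvalb did not pass for storage (0.64, SE 0.29, adjusted p = 0.543 in edgeR) but passed as higher in frozen libraries when the fresh library with preindex was left out (1.23, adjusted p = 0.00141) and with no filter on low counts (adjusted p = 0.00311). Purkinje-marker nuclei numbered 13, 14, 3 and 1 in frozen and 1, 6 and 1 in fresh libraries. Without them, Pvalb had 16.0, 15.2, 6.65 and 7.17 CPM in frozen and 7.99, 10.4 and 9.37 CPM in fresh libraries, which overlapped, and the storage estimate was 0.26 (adjusted p = 0.823 in edgeR). The part of these nuclei in the storage estimate was not tested.

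For the primer, 5.97% of genes passed as lower with preindex and 6.19% as higher. Pvalb was the only one of the 10 that passed. It had 31.4 and 25.2 CPM in frozen and 9.80 and 14.2 CPM in fresh libraries without preindex, and 6.64 and 7.17 CPM in frozen and 9.37 CPM in fresh libraries with it. The primers did not overlap, with a log2 fold change of -1.23 (SE 0.29, adjusted p = 0.0207 in edgeR), but the fresh library with preindex lay close to 1 of those without. The share of all genes without overlap between primers was not counted either. Purkinje-marker nuclei numbered 13, 14, 1 and 6 in the libraries without preindex in the same order and 3, 1 and 1 in those with it. Without them, Pvalb had 16.0, 15.2, 7.99 and 10.4 CPM without preindex and 6.65, 7.17 and 9.37 CPM with it, and the change of -0.51 (SE 0.22, adjusted p = 0.167 in edgeR) did not pass. Leaving these nuclei out was chosen after seeing the data, and their part in the primer difference was not tested. Leaving out each of the 4 frozen libraries in turn also ended the call (adjusted p 0.0562 to 0.0884 in edgeR), while without the fresh library with preindex the change was -1.93 (adjusted p = 3.12e-05).

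The other 9 genes had primer changes between -0.44 (Calb2, adjusted p = 0.276 in edgeR) and 0.02 (Cort). In sums over all nuclei, Calb2 was lower with preindex (-0.87, SE 0.17, adjusted p = 0.0168 in edgeR). Granule-marker nuclei, which are rich in Calb2, numbered 41, 59, 27 and 45 in the libraries without preindex and 0, 0 and 1 in those with it, and their part in this change was not tested.

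**Figure D5:**
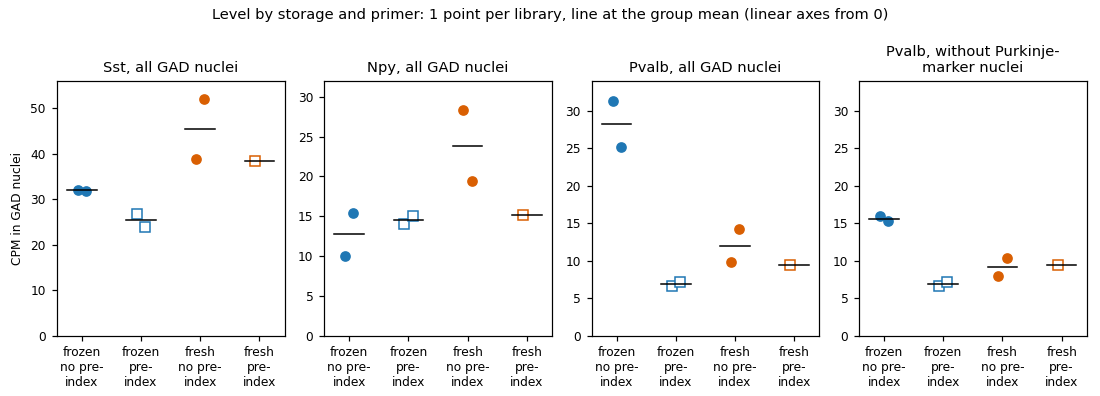
Level (CPM, linear axes from 0) of Sst, Npy and Pvalb in GAD nuclei by storage and primer, and of Pvalb without Purkinje-marker nuclei, 1 point per library with a line at the group mean. Frozen Sst values (24.0 to 32.1 CPM) lie below fresh ones (38.3 to 52.0 CPM), but Sst did not pass for storage. The gap between frozen Pvalb values with and without preindex narrows once Purkinje-marker nuclei are left out.

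Whether the difference between GAD and other nuclei depended on storage or primer was tested as an interaction. For storage 0.0141% of 14203 genes passed and for the primer 1.39% (0.5% with a positive and 0.887% with a negative term), and none of the 10 genes was among them. The smallest p belonged to the primer term of Pvalb, 0.95 on the log2 scale (SE 0.35, unadjusted p = 0.0240, adjusted p = 0.242 in edgeR), followed by Calb2 (0.72, adjusted p = 0.311) and Vip (1.11, adjusted p = 0.364). The Vip term has a wide error (SE 0.53).

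Of 18 genes for receptors of these peptides 15 were tested, 3 passed as higher and 7 as lower in GAD nuclei, where 17.8% of all genes passed as higher and 19% as lower, and their median log2 fold change was -0.24, against a median of all genes of 0.00165. The 3 higher were Crhr2 (1.59, adjusted p = 0.00266 in edgeR), Npy2r (0.74) and Adcyap1r1 (0.61), the latter a receptor that prefers the related peptide PACAP. Cckbr, the main brain receptor of cholecystokinin, was lowest relative to other nuclei, at 7.65 ± 1.47 against 22.7 ± 3.20 CPM (-1.61, adjusted p = 9.79e-07), followed by Sstr3 (-1.39), Sstr2 (-1.11) and Vipr1 (-1.10). Also lower were Sstr4, Crhr1 (-0.94) and Npy1r (-0.71).

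Of 10 genes that cut and carry peptide precursors all were tested, 5 passed as higher and 4 as lower (all genes 17.8% and 19%), with a median log2 fold change of 0.09. With no filter on low counts 3 passed as higher. Scg2, a granin of dense-core vesicles, rose by 0.99 on the log2 scale (edgeR, adjusted p = 0.000810) and Pcsk1n, the inhibitor of a convertase, by 0.62. The convertases themselves were lower, Pcsk1 at 13.5 ± 2.61 against 31.3 ± 7.83 CPM (-1.24, adjusted p = 3.71e-06) and Pcsk2 at 562 ± 33.8 against 1080 ± 68.2 CPM (-0.97, adjusted p = 6.09e-07). Chga, Scg5 and Pam were higher by 0.32, 0.20 and 0.18, and Cpe and Chgb lower at -0.46 and -0.42.

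Of 32 interneuron genes 31 were tested, and 27 passed as higher and 1 as lower in GAD nuclei (all genes 17.8% and 19%), with a median log2 fold change of 2.08. The list holds known interneuron genes and the nuclei were chosen by Gad1 and Gad2, so that this count is no independent result. The largest changes were those of the homeobox genes Dlx1 (5.31), Dlx5 (4.62) and Dlx2 (4.53), of Dlx6os1 (5.30), a noncoding RNA antisense to Dlx6, and of Lhx6 (4.89, adjusted p = 2.88e-07 in edgeR), which had 18.6 ± 4.05 CPM in GAD nuclei and 0.692 ± 0.306 in other nuclei. Dlx1, Dlx5 and Dlx2 had 0.187, 0.165 and 0.102 CPM in other nuclei. These 3 genes and Lhx6 met the filter on low counts through their GAD level. They had to differ, so that the adjusted p of Lhx6 carries no weight. Lamp5, which cortical excitatory neurons also express, was the gene that passed as lower (-0.35, adjusted p = 0.0417).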

How the data were processed

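The 7 brain libraries of the series were used and 5 libraries of mixed cell lines were not analysed here. Per the labels and methods, the authors trimmed poly-A with Cutadapt, took barcodes with UMI-tools by a manual read cut-off, ran STAR, used only reads with a unique position, counted them over gene bodies with featureCounts and deposited raw counts of UFIs per gene and nucleus. The submitters' processing notes list GRCh38, GRCm38 and mm10, with tool versions for the brain libraries not given in the sources used here.

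The 10 members, the gene lists and the tests were chosen with earlier results of these data known. Counts were summed per library and class and fitted in edgeR 4.0.16 (R 4.3.3) with TMM scaling, filterByExpr, the quasi-likelihood test and an adjusted p of 0.05, with the library as a block for classes, and with storage and primer as terms for groups. DESeq2 1.42.0 was an alternative. Shares were tested by an exact sign-flip permutation over libraries (Python 3.11.15, numpy 2.4.6, scipy 1.17.1). The edgeR fits for class and storage were checked on simulated counts, and the sign-flip test on simulated normal values. Libraries held 8605214 to 42439731 UFIs. A gene was divided among GAD nuclei where at least 4 libraries had at least 5 nuclei with it. Of each list up to 5 genes were named by fold, and with each member the 5 genes with the largest rise and the 3 with the largest fall among those that passed at 10 CPM or more, members excluded. Positions are from GENCODE on GRCm38, promoters from RefSeq. An interval is exact (95% binomial), and a share of 0 is given the limit of 3 counts.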

Additional observations from a re-analysis of the deposited data

Results flagged for a closer look

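Of 120 groups of 4 to 7 library values of the 10 genes, 10 held a value that stood apart from the rest by Dixon's criterion, which chance alone meets in about 1 of 20 groups. The groups overlap, and a value of Pnoc and a value of Cort were each flagged in more than 1 group, so that the 10 cannot be set against this rate. All but 1 of the flags are shares of thinned nuclei, and most rest on few nuclei. Sst was seen in 1.53% of other nuclei of the first frozen library without preindex, against 0.614% to 0.725% in the other frozen libraries. Crh was seen in 0.437% of other nuclei of the same library and in 0% of those of the other frozen libraries.

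Pnoc was seen in 0% of other nuclei of the second frozen library with preindex, against 0.198% to 0.295% in the other 6 libraries and 0.198% to 0.218% in the other frozen ones. Tac2 was seen in 0% of other nuclei of the second frozen library without preindex, against 0.198% to 0.230% in the other frozen libraries, and its level in other nuclei of the first frozen library with preindex was 0.638 CPM, against 0.111 to 0.191 CPM.

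Cort was seen in 1.36% of GAD nuclei of the second fresh library without preindex, the most deeply sequenced, against 0.144% to 0.620% in the other 6 libraries and 0.310% to 0.426% in the others without preindex. In other nuclei it was seen in 0.117% of the same library, against 0% in the others without preindex, and in 0.0768% of the second frozen library with preindex, against 0% in the other frozen ones.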

How the results depend on the processing

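Of 714 alternative values for single genes and pairs, 627 kept their direction and their side of the threshold, 55 lost the threshold, 6 gained it and 26 changed direction, none of the last a called value. Of 230 alternative counts, 182 stayed within 1.5 times the reported count. With no filter on low counts, 8 members were higher in GAD nuclei, 3 differed by storage, 3 processing genes were higher and 477 genes differed by storage (50 reported). In sums over all nuclei 2 members and 3041 genes differed by primer (1869 reported). Without Purkinje-marker nuclei, an alternative chosen after seeing the data, 0 members differed by primer and 25 genes by storage. With thinned nuclei 3472 genes differed between classes (5228 reported), and 0 pairs passed when nuclei were not thinned or when GAD nuclei with Slc17a7 or Slc17a6 were left out, or when all 45 pairs were tested, a choice made after seeing the data. With at least 1 UFI as the limit, 290, 524, 307 and 1584 genes were higher with Cck, Pnoc, Calb2 and Pvalb (145, 219, 113 and 975 reported). The cause of these shifts was not tested.

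Without single libraries, 0 to 1 members differed by storage (1 without the first fresh library without preindex, Sst, and 1 without the fresh library with preindex, Pvalb), 0 to 1 by primer and 0 to 5 pairs passed. Genes higher with Cck numbered 94 to 149 (lowest without the first frozen library with preindex), with Tac2 106 to 181 (lowest without the fresh library with preindex) and with Calb2 52 to 122 (lowest without the second frozen library with preindex). Over all genes, 14 to 650 were called for storage, 1016 to 1914 for the primer, 2 to 277 for class by storage (2 reported) and 8 to 2152 for class by primer (197 reported), with 650, 277 and 2152 without the fresh library with preindex.

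The log2 values that changed direction were for storage Calb2 at 0.0174 in sums over all nuclei, 0.0189 without Purkinje-marker nuclei and -0.211 to 0.167 without single libraries. For the primer they were Npy at 0.0101 without Purkinje-marker nuclei, Pnoc at 0.000617 in DESeq2, and Cort at -0.0340 in sums over all nuclei and -0.0323 without Purkinje-marker nuclei. Without single libraries the primer values ranged from -0.247 to 0.184 for Npy, -0.236 to 0.104 for Pnoc, -0.563 to 0.194 for Crh, -0.0166 to 0.111 for Cort and -0.961 to 0.0575 for Tac2. The interaction with storage ranged from -0.654 to 0.0235 for Sst, -0.558 to 0.0818 for Vip and -0.336 to 0.0905 for Calb2, and that with the primer from -0.549 to 0.104 for Sst and -0.486 to 0.320 for Npy. The share of Pvalb with Sst differed by -1.21 points when nuclei were not thinned.

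Same-numbered libraries of different groups did not deviate together (correlations 0.00653, 0.0271 and -0.00960), so that the numbers do not pair them. With the replicate block, 0 members and 35 genes differed by storage, and 1 member (Pvalb, -1.27, adjusted p = 0.0373 in edgeR) and 1401 genes by primer. Depth limits Crh, Cort and Tac2 most, with 142, 75 and 253 UFIs in all.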
